A study of Mus musculus with 8 samples.

Results

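Glycolysis and the response to low oxygen are described here through 34 genes, the enzymes, transporters and regulators of glucose breakdown together with genes that hypoxia-inducible factor (HIF) is known to drive. They were chosen by name, from a list of glycolysis genes and HIF targets, with earlier results of these data known, and matched by symbol. Counts of these genes set beside the share of all tested genes are therefore a description and no test of the list. All 34 were found among the 24980 gene symbols with estimated read counts, and all 34 were among the 17582 genes with enough counts to be tested.

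Glycolysis splits glucose to pyruvate in the cytosol, and lactate dehydrogenase turns pyruvate into lactate when it is not burned in mitochondria. HIF is a pair of proteins whose alpha subunit is hydroxylated by EGLN enzymes in the presence of oxygen and then destroyed. When oxygen is short the subunit persists, binds short DNA elements near genes for glucose uptake, glycolysis, mitophagy and blood vessel growth, and raises their transcription, among them genes for EGLN enzymes, which act back on it. Muscle uses its own isoforms of several glycolytic enzymes, and muscle stem cells are known to move between fat burning at rest and glycolysis when they divide.

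RNA was sequenced from mouse skeletal myogenic cells in 4 groups of 2 biological replicates. TF cells were progenitors sorted fresh from teratomas, tumors of many tissues, which E14-EGFP embryonic stem cells formed after injection into tibialis anterior muscles of NSG-mdx4Cv mice, which are immunodeficient and lack dystrophin, after irradiation and cardiotoxin injury. SF cells were satellite cells, the resident stem cells of adult muscle, sorted fresh, and TE and SE cells were the respective cells grown in myogenic expansion medium on gelatin to passage 8. The sort took cells negative for CD31 and CD45 and positive for α7-integrin and VCAM-1. All teratoma-derived libraries come from 1 stem cell line, and cell origin cannot be told apart from the host mouse, the donor strain or the route of isolation. The mouse strain behind the satellite cells and the oxygen level of the cultures are not given in the sources used here.

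Library totals were 11930961 and 12178480 counts in TF and 19198820 and 18342673 in TE, in the order of replicates 1 and 2. They were 13973405 and 16872802 in SF and 21146632 and 17035856 in SE. The spread between the 2 libraries of a group exceeded counting noise in each group. Nothing in the sources says whether replicates came from separate animals or cultures, so p-values measure the spread between these libraries, which may be technical. Comparisons that share a group share its libraries. Levels are given as normalized counts, the counts divided by median-ratio size factors. Differences are log2 differences from edgeR's quasi-likelihood test over all 8 libraries with TMM scaling, each with its standard error after the ± sign, and a p-value adjusted by Benjamini-Hochberg over all 17582 genes. A gene was called when the adjusted p-value was below 0.05 and the log2 difference was beyond 0.322 in either direction. Between the 2 scalings the median difference of all genes moved by -0.19 in SE versus SF, -0.16 in TF versus SF and 0.14 in the difference between the expansions, and by no more than -0.055 in the other comparisons, so a ratio of levels and a tested difference of 1 gene are offset by about these amounts.

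The labelled cell type was checked with its markers. The satellite cell factor Pax7 read between 3067 and 4914 normalized counts in fresh and between 1174 and 1743 in expanded libraries. Itga7, the gene of the sorted integrin, read between 2354 and 5761 in the 8 libraries. Vcam1, the gene of the other sorted protein, read between 3856 and 6579 in fresh and between 580 and 1785 in expanded libraries. The rest of the 8 satellite cell and myoblast markers differed in course. In the order TF, TE, SF and SE, Myf5 had means of 1084, 104, 1602 and 96.7, and Myod1 of 784, 4822, 7802 and 10600. Cdh15 had means of 3597, 6641, 2246 and 3278, Des of 5869, 15330, 13730 and 24320, and Chrna1 of 923, 6762, 526 and 14160. Where 2 sums are given for 1 group below, they are those of replicates 1 and 2, in that order. The 12 markers of differentiated muscle, led by the embryonic myosin Myh3, summed to 22810 and 11220 in TF, 115300 and 124300 in TE, 4857 and 3462 in SF and 145500 and 321400 in SE. The 7 endothelial markers summed to between 1155 and 6289 in fresh and between 6.94 and 33.6 in expanded libraries. The 7 haematopoietic markers summed to 7163 and 635 in TF, 968 and 749 in SF and between 47.2 and 168 in expanded libraries. The 6 erythroid markers, of red blood cells, summed to 2685 and 62.8 in TF, 1862 and 2872 in SF and between 8.58 and 14.7 in expanded libraries. The 7 fibro-adipogenic markers, carried by Col1a1, reached 237700 and 240700 in TF, 35580 and 60920 in SF, 3169 and 7691 in SE and 362 and 157 in TE. Without Col1a1 they summed to 28370 and 27530 in TF and 17970 and 28380 in SF, which overlap. In SE this sum was 117 and 109, and in TE 99.6 and 35.5. The 6 pericyte and smooth muscle markers, led by Acta2, summed to 16990 and 16760 in TF, 23570 and 23330 in TE, 17730 and 15900 in SF and 6727 and 23800 in SE. Without Acta2 they summed to 10110 and 9089 in TF, 983 and 941 in TE, 14370 and 13290 in SF and 1519 and 1945 in SE. Fresh libraries held between 211500 and 297000 normalized counts of 10 immediate early genes, which dissociation is known to induce, against between 8231 and 8891 in expanded libraries. The 6 proliferation markers summed to 2149 and 2248 in SF, 10900 and 11370 in TF, 12540 and 11610 in TE and 21680 and 8943 in SE. In SE, replicate 1 thus had the higher proliferation sum and replicate 2 the higher differentiated muscle sum. The part of these other programs in the differences below was not tested, and in bulk RNA fewer cells of a type cannot be told apart from less RNA per cell.

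The DNA just before the start of 6 members is shown because HIF is known to bind the core letters ACGTG or GCGTG and because these members changed differently on expansion in the 2 cell origins. They are the 6 with the smallest adjusted p in that test among members that hold such a site, so that a site in each of them is a condition of the choice and not a finding. Tpi1 and Gpi1, which changed differently as well, held 0 sites in their windows, and Ndrg1 had no entry. The stretches come from RefSeq on build GRCm38.p6 and are printed in the direction of the gene. Capitals mark ACGTG or GCGTG on either strand. A stretch holds the 250 bases before a RefSeq start, unless the gene begins earlier in the GENCODE annotation. Those of Bnip3 and Egln1 stop at that earlier beginning and hold 237 and 180 bases. The full window of Egln1, as defined below, held 2 sites. For Eno1 and Egln3 the RefSeq start lies before the beginning of the gene in GENCODE. Eno1 has further windows at other RefSeq starts, which held 2 sites each. The strand and place are, in order, plus at chrX:106186850-106187099 for Pgk1, minus at chr7:138909520-138909756 for Bnip3, plus at chr4:150236458-150236707 for Eno1, minus at chr12:54203875-54204124 for Egln3, minus at chr8:124949325-124949504 for Egln1 and plus at chr2:71872974-71873223 for Pdk1.
Pgk1: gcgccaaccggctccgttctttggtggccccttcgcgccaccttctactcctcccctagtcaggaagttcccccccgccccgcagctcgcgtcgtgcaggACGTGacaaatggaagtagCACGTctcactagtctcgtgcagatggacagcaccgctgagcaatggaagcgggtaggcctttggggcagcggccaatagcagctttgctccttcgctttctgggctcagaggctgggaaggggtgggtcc
Bnip3: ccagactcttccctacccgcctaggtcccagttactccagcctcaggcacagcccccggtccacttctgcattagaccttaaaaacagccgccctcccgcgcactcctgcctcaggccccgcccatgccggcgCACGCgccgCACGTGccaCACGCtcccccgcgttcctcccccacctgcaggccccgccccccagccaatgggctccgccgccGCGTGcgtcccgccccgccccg
Eno1: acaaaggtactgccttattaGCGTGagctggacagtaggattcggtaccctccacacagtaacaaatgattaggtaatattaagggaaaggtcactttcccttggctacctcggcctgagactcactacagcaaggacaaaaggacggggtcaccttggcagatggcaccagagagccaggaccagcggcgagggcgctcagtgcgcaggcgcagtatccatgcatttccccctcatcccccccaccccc
Egln3: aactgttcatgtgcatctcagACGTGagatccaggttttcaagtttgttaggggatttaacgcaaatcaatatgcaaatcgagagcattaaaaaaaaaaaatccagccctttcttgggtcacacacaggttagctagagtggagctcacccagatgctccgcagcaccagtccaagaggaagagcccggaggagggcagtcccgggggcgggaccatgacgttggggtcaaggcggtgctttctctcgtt
Egln1: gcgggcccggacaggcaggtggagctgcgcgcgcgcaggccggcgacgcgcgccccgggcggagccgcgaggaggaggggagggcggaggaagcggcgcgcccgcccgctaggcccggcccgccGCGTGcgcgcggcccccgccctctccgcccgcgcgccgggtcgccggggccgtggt
Pdk1: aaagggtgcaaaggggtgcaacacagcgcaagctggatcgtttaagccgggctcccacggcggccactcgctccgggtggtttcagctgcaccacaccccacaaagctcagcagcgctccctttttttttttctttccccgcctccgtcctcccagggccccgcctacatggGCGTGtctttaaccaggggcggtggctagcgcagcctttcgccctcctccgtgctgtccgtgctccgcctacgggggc

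Bnip3 held 4 such sites in this stretch, 1 of them inside CACGTG, a palindrome that other factors also read and that overlaps ACGTG. Pgk1 held 2 sites and the other 4 genes held 1 each. Over the full windows of 300 bases, from 250 before to 50 after an annotated start, 31 members had an entry and 29 of these (93.5%) held a site in at least 1 window, against 46.7% of the 27025 genes with an entry. By window the share was 37 of 48 (77.08%) among members and 43.8% of all 32851 windows. Windows of members were richer in G and C, with a median of 62.67% against 52.67%, and 71.2% of the 7307 windows at or above the members' median held a site. These matches are letters only and were not tested as binding sites.

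Across the 34 genes the 4 groups took a common order in many cases. SE had the highest mean of the 4 groups for 21 genes and SF the lowest mean for 21, and 16 genes followed the order SE, TE, TF, SF, among them 11 of the 15 enzymes from hexokinase to lactate dehydrogenase. These orders were not counted over all tested genes, so how far they are particular to the 34 genes is not known. The share of glycolysis in the counts was summed over those 15 enzymes, with the ribosomal RNA precursor Rn45s left out. In replicates 1 and 2 it was 0.206% and 0.229% in SF, 0.362% and 0.328% in TF, 0.657% and 0.689% in TE, and 1.185% and 1.245% in SE. No 2 groups overlapped in this share, which was the same in order with the enolase copy Eno1b added (0.207% and 0.229%, 0.376% and 0.344%, 0.699% and 0.731%, 1.187% and 1.247%).

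**Figure D1:**
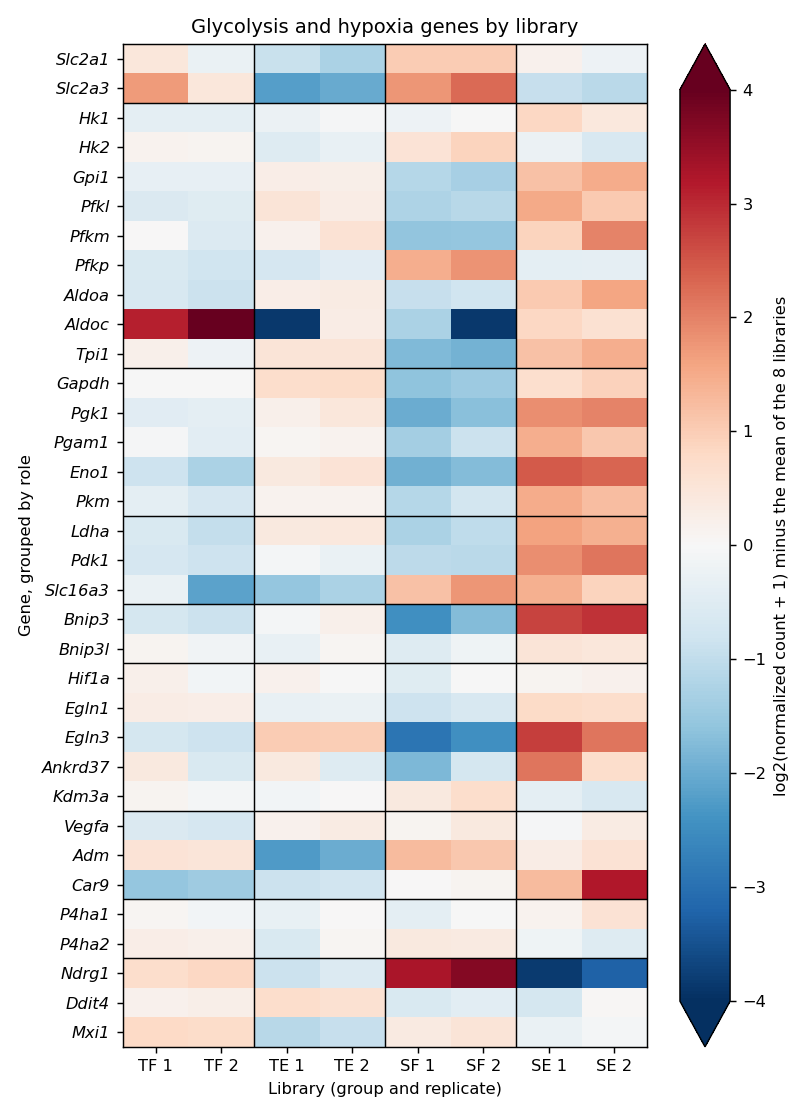
Level of each of the 34 genes in each library, as log2(normalized count + 1) minus the mean of the 8 libraries of that gene, with blue below and red above the mean and lines between roles and groups (colors stop at 4 on either side). Most enzymes are bluest in SF and reddest in SE, with 21 of the 34 genes having their highest mean in SE, while Slc2a3, Pfkp and Ndrg1 are reddest in SF.

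Glucose enters cells through carriers of the SLC2 family. In the values that follow, the 2 numbers of a group are the normalized counts of its replicates 1 and 2. Slc2a1, the carrier of most cultured and dividing cells, measured 1661 and 999 in TF, 651 and 497 in TE, 2433 and 2419 in SF and 1345 and 1035 in SE. Slc2a3, a high-affinity carrier, measured 522 and 222 in TF, 34.5 and 39.3 in TE, 554 and 780 in SF and 84.4 and 75.5 in SE. Both carriers were lower in every expanded library than in any fresh library of the same origin, and the TF replicates of Slc2a3 stood apart by more than those of the other groups.

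The preparatory steps of glycolysis trap glucose as a phosphate and cleave it. Hk1, the housekeeping hexokinase, measured 1405 and 1394 in TF, 1562 and 1771 in TE, 1578 and 1810 in SF and 3272 and 2471 in SE. The inducible hexokinase Hk2 measured 3368 and 3322 in TF, 2132 and 2490 in TE, 4459 and 5681 in SF and 2626 and 1955 in SE. The 2 hexokinases thus had their extremes in different groups, Hk1 being highest in both SE libraries and Hk2 in both SF libraries. Gpi1, which isomerizes glucose 6-phosphate, measured 2730 and 2763 in TF, 4142 and 4044 in TE, 1555 and 1372 in SF and 7865 and 9675 in SE, with no overlap between any 2 groups. Phosphofructokinase, the committed step, has 3 genes. The liver type Pfkl measured 652 and 698 in TF, 1402 and 1196 in TE, 410 and 452 in SF and 2795 and 2025 in SE. The muscle type Pfkm measured 727 and 495 in TF, 817 and 1074 in TE, 243 and 247 in SF and 1327 and 2875 in SE, and its SE replicates differed most, with the muscle markers of SE replicate 2 above those of replicate 1 as well. The platelet type Pfkp (chr13:6579768-6648777, GRCm38, minus strand) measured 540 and 474 in TF, 512 and 602 in TE, 2247 and 2843 in SF and 619 and 632 in SE, so that the SF libraries stood above the other 6, which lay close together. Pfkp overlaps Pitrm1 on the annotation and shares 748 bases of transcript with it, so how reads were divided between the pair is uncertain. Pitrm1 itself had a difference of -0.07 ± 0.21 (adjusted p = 0.807) in SE versus SF and -0.33 ± 0.21 (adjusted p = 0.281) in TF versus SF.

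Aldolase splits the doubly phosphorylated sugar. Aldoa, the muscle and general form, measured 4526 and 3861 in TF, 8515 and 8779 in TE, 3747 and 4093 in SF and 14700 and 20990 in SE, with the 2 fresh groups overlapping. The brain form Aldoc was nearly silent outside TF, with 97 and 205 counts in TF, 0 and 22 in TE, 4 and 0 in SF and 35 and 25 in SE before normalization. Triose phosphate isomerase, Tpi1, measured 1776 and 1363 in TF, 2223 and 2220 in TE, 459 and 417 in SF and 3540 and 4223 in SE, low in both SF libraries.

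The payoff steps recover energy and end at pyruvate. Gapdh measured 16030 and 16180 in TF, 26600 and 27140 in TE, 5367 and 5924 in SF and 26000 and 31080 in SE, so that TE and SE overlapped well above the fresh libraries. Near-identical stretches of it are annotated in transcripts of 169 other genes, of which 9 have counts, at no more than 298 normalized counts. Peli2 (298) and Vmn2r60 (5.10) are genes of their own matched through a processed transcript, and Gm5177 (154) was the highest of the rest. Pgk1, which makes the first ATP, measured 1951 and 2077 in TF, 3138 and 3673 in TE, 687 and 837 in SF and 9685 and 10750 in SE, with no overlap between groups. Pgam1, the general phosphoglycerate mutase, measured 1816 and 1415 in TF, 1993 and 2082 in TE, 731 and 1035 in SF and 5213 and 3965 in SE. The 2 SE libraries of Pgam1 stood above the other 6. Pkm, pyruvate kinase, measured 8131 and 6706 in TF, 11780 and 11840 in TE, 4864 and 6417 in SF and 30010 and 25060 in SE, again highest in both SE libraries.

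Enolase, the step before pyruvate kinase, needs care in mouse because the general gene Eno1 (chr4:150236721-150248879, GRCm38, plus strand) has a near-identical retrogene, Eno1b, 99.48% identical over 1736 bases. Eno1 measured 2626 and 1950 in TF, 6100 and 6835 in TE, 1227 and 1398 in SF and 25530 and 23610 in SE. Eno1b measured 1958 and 2130 in TF, 5006 and 4871 in TE, 96.8 and 0 in SF and 247 and 201 in SE. Of the counts of both, Eno1b took 42.7% and 52.2% in TF, 45.1% and 41.6% in TE, 7.32% and 0% in SF and 0.957% and 0.843% in SE. The copy thus took a large share in the libraries of teratoma origin and nearly none in those of satellite origin. How reads were divided between the pair is uncertain, and whether the copy was transcribed or drew reads of Eno1 was not tested. The sum of both was 4584 and 4080 in TF, 11110 and 11710 in TE, 1324 and 1398 in SF and 25780 and 23810 in SE, and it kept the order of the groups.

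Pyruvate is turned to lactate by Ldha, its oxidation inside mitochondria is restrained by the kinase Pdk1, and lactate leaves through Slc16a3. Ldha (chr7:46841475-46855627, GRCm38, plus strand) measured 2884 and 2275 in TF, 5759 and 5859 in TE, 1837 and 2148 in SF and 13430 and 11770 in SE, with no overlap between any 2 groups. Pdk1 (chr2:71873224-71903858, plus strand) measured 262 and 232 in TF, 391 and 344 in TE, 203 and 195 in SF and 1501 and 1816 in SE. The SE libraries of Pdk1 were thus far above the other 6. Slc16a3, also named MCT4, measured 316 and 84.9 in TF, 130 and 156 in TE, 852 and 1289 in SF and 1014 and 700 in SE, so that both satellite groups stood above both teratoma-derived groups, with TF replicate 1 apart from replicate 2.

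Bnip3 and Bnip3l mark mitochondria for removal and are among the best known HIF targets. Bnip3 (chr7:138890836-138909519, minus strand) measured 283 and 251 in TF, 438 and 530 in TE, 82.8 and 138 in SF and 2995 and 3427 in SE, with the 4 groups apart. Bnip3l measured 1131 and 946 in TF, 844 and 1092 in TE, 731 and 928 in SF and 1482 and 1439 in SE, a much narrower range in which TE overlapped TF and SF.

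Of HIF itself and its feedback, the transcript of the alpha subunit Hif1a (chr12:73901375-73947530, plus strand) measured 2823 and 2281 in TF, 2796 and 2415 in TE, 1749 and 2457 in SF and 2664 and 2764 in SE. SF and SE did not overlap for Hif1a, and every other pair of groups did. HIF is regulated mainly at the level of the protein, which was not measured. Egln1, the main oxygen sensor, measured 1202 and 1161 in TF, 797 and 804 in TE, 552 and 626 in SF and 1667 and 1586 in SE. Egln3, the most inducible of the hydroxylases (chr12:54178981-54203860, minus strand), measured 262 and 241 in TF, 875 and 849 in TE, 56.0 and 78.7 in SF and 2973 and 1922 in SE. Both hydroxylases were lowest in SF and highest in SE, while TE lay below TF for Egln1 and above it for Egln3. The histone demethylase Kdm3a measured 1557 and 1374 in TF, 1363 and 1480 in TE, 1907 and 2378 in SF and 1104 and 937 in SE, opposite in order to Egln3, and Ankrd37, a small HIF target, lay between 6.37 and 113 normalized counts in all libraries.

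Among secreted and surface products, Vegfa, the main vessel growth factor, measured 2603 and 2412 in TF, 4403 and 4806 in TE, 4153 and 5056 in SF and 3711 and 4841 in SE. The 2 TF libraries of Vegfa stood below the other 6, which overlapped. Adm, the vasodilator adrenomedullin, measured 174 and 170 in TF, 24.0 and 29.3 in TE, 289 and 257 in SF and 149 and 181 in SE, and the 2 TE libraries stood below the other 6. Car9, a carbonic anhydrase at the cell surface that is nearly absent from most normal tissue, measured 27.3 and 29.5 in TF, 44.2 and 47.8 in TE, 81.5 and 86.7 in SF and 196 and 762 in SE, so its SE mean rested on replicate 2. P4ha1 and P4ha2 encode catalytic subunits of the collagen prolyl hydroxylase, and P4ha1 measured 2588 and 2281 in TF, 2033 and 2509 in TE, 1889 and 2440 in SF and 2738 and 3734 in SE. P4ha2 stayed between 268 and 538 normalized counts in all libraries.

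Ndrg1, a growth and stress response gene widely used as a marker of hypoxia (chr15:66929318-66969640, minus strand), took the opposite course to the enzymes. It measured 1729 and 1892 in TF, 589 and 718 in TE, 10230 and 13520 in SF and 73.0 and 112 in SE. SF stood above, SE below, all other libraries, and the 4 groups did not overlap. Mxi1, an antagonist of MYC, measured 667 and 641 in TF, 178 and 200 in TE, 490 and 552 in SF and 317 and 364 in SE, lowest in both TE libraries. Ddit4, which restrains growth signaling, lay between 260 and 687 normalized counts.

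**Figure D2:**
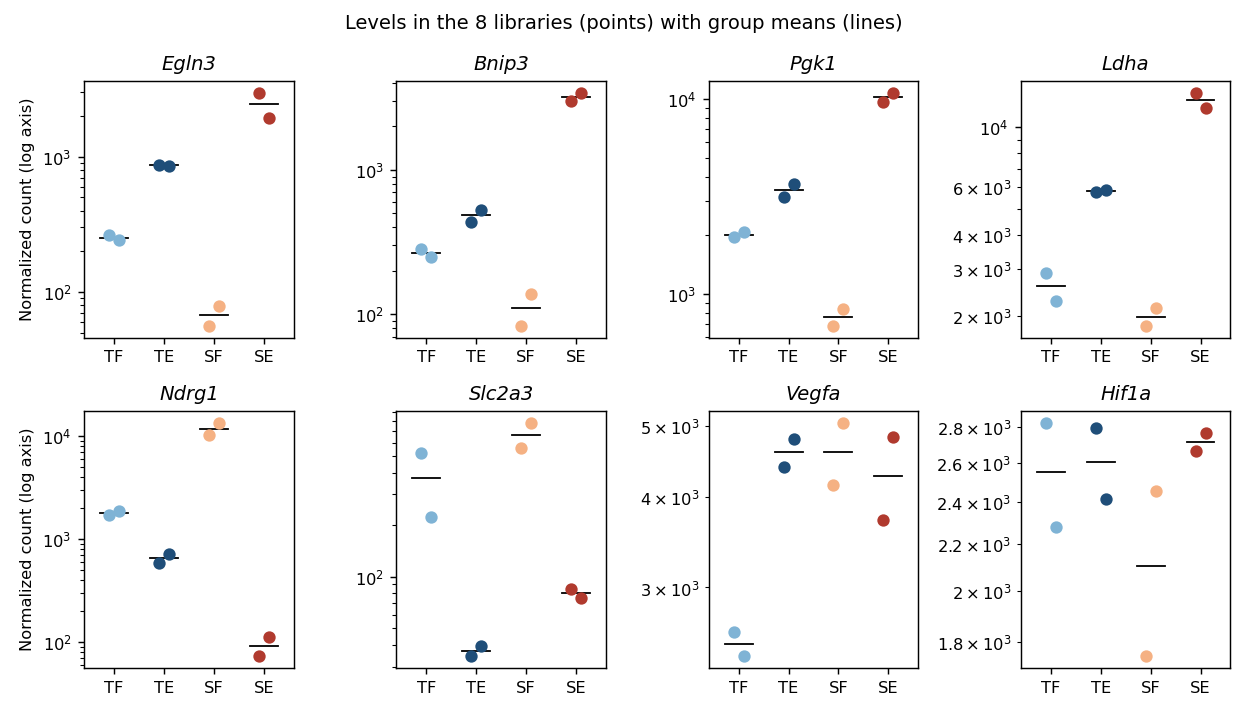
Normalized counts of 8 genes in the 4 groups, 1 point per library with a line at the group mean, each panel on its own log axis. Egln3, Bnip3, Pgk1 and Ldha climb from SF over TF and TE to SE, Ndrg1 runs from 10230 and 13520 in SF down to 73.0 and 112 in SE, and the 4 groups of Hif1a lie within 1749 and 2823.

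Expansion of satellite cells, SE versus SF, changed more of the 34 genes than any of the other 3 pairwise comparisons. Hk1, Gpi1, Pfkl, Pfkm, Aldoa, Tpi1, Gapdh, Pgk1, Pgam1, Eno1, Pkm and Ldha were higher in SE, together with Pdk1, Bnip3, Bnip3l, Egln1, Egln3, Car9 and P4ha1, while both glucose carriers, Hk2, Pfkp, Kdm3a and Ndrg1 were lower. Of the 34 genes 19 were called higher and 6 lower, where 20.9% and 19.8% of all tested genes were, and the median difference was 2.02 against -0.23 over all genes. The 6 called lower are near the general share. Among the 15 enzymes 12 were called higher and 2 lower with a median of 2.67, and among the other 19 genes 7 were higher and 4 lower with a median of 0.41. Egln3 was higher by 5.36 ± 0.31 (adjusted p = 3.47e-06), Bnip3 by 5.04 ± 0.30 (adjusted p = 4.28e-06) and Eno1 by 4.42 ± 0.24 (adjusted p = 2.79e-06) (4.38 with Eno1b added). Ndrg1 was lower, with a log2 difference of -6.82 ± 0.32 (adjusted p = 1.37e-06), followed by Slc2a3 at -2.87 ± 0.45 (adjusted p = 0.00084) and Pfkp at -1.84 ± 0.21 (adjusted p = 0.000134). The other called differences ran from 0.77 for P4ha1 to 3.93 for Pgk1 upward and from -0.84 for Slc2a1 to -0.96 for Hk2 downward. For 31 of the 34 genes the libraries of the 2 groups did not overlap, as for 72.0% of all tested genes. Without SE replicate 2 the call of Car9 was lost (1.42, adjusted p = 0.216, from 2.70), Pfkm moved from 3.29 to 2.63, P4ha1 (0.53) and Slc2a1 (-0.65) also lost the call, and 17 genes were called higher and 5 lower. P4ha1 and Slc2a1 also lost the call without SF replicate 1 (0.57 and -0.86), and Slc2a1 without SF replicate 2 (-0.80). Of the 12 differentiated muscle markers 9 were higher in SE and 1 lower, and of the 6 proliferation markers 5 were higher, and their part in the rise of the enzymes was not tested.

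Expansion of teratoma-derived cells, TE versus TF, changed fewer of the genes. Gpi1, Pfkl, Aldoa, Gapdh, Pgk1, Eno1, Pkm and Ldha rose, with Bnip3, Egln3 and Vegfa, while both glucose carriers, Adm, Mxi1 and Ndrg1 fell. These were 11 genes called higher and 5 lower of 34, where 9.86% and 16.2% of all tested genes were, with a median of 0.35 against -0.18 over all genes. The 5 called lower are near the general share. Of the 15 enzymes 8 were called higher and 7 were not called, with a median of 0.69. Egln3 was higher by 1.83 ± 0.26 (adjusted p = 0.000794), Eno1 by 1.55 ± 0.21 (adjusted p = 0.000664) (1.45 with Eno1b added) and Ldha by 1.23 ± 0.20 (adjusted p = 0.00181). Slc2a3 was lower, at -3.27 ± 0.46 (adjusted p = 0.000784), as were Adm at -2.63 ± 0.42 (adjusted p = 0.00162) and Mxi1 at -1.74 ± 0.25 (adjusted p = 0.000865). Other calls ran from 0.63 for Gpi1 to 1.10 for Aldoa, and from -1.16 for Slc2a1 to -1.41 for Ndrg1. Pdk1 at 0.63 ± 0.22 (adjusted p = 0.0608), Hk2 at -0.48 ± 0.21 (adjusted p = 0.128) and Hif1a at 0.09 ± 0.22 (adjusted p = 0.805) were not called. For 27 of the 34 genes the libraries of the 2 groups did not overlap, as for 69.1% of all tested genes. The count of genes called higher depended on each of the 4 libraries, being 5 without TE replicate 1, 5 without TE replicate 2, 5 without TF replicate 1 and 4 without TF replicate 2, while the differences of the genes that lost the call moved by at most 0.43. Gpi1, Gapdh, Pgk1, Pkm and Bnip3 lost the call without each of the 4, Pfkl without TF replicate 1 or TE replicate 1, Vegfa without TF replicate 2 or TE replicate 2, and Aldoa without TF replicate 2. Slc2a1 lost it without TF replicate 1 (-0.72) or TE replicate 2 (-0.95). Over all genes the same 4 omissions gave 840, 811, 1064 and 941 genes called higher in place of 1733. Slc2a3 fell by 2.51 without TF replicate 1, in place of 3.27. TF replicate 1 exceeded replicate 2 in the sums of haematopoietic (7163 against 635), endothelial (4133 against 1155) and erythroid markers (2685 against 62.8). The same held for differentiated muscle markers (22810 against 11220) and, narrowly, for pericyte and smooth muscle markers (16990 against 16760). It did not hold for fibro-adipogenic, proliferation, immediate early or satellite cell markers. The part of these cells in the fall of Slc2a3 was not tested. Of the 12 differentiated muscle markers 6 were higher in TE and 6 not called, the 6 proliferation markers had a median difference of 0.30, and their part was not tested.

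Set side by side, 10 genes were called higher on expansion in both origins (Gpi1, Pfkl, Aldoa, Gapdh, Pgk1, Eno1, Pkm, Ldha, Bnip3, Egln3) and 3 lower in both (Slc2a1, Slc2a3, Ndrg1), where 6.34% and 9.81% of all tested genes were called higher and lower in both. The 3 of 34 called lower are near that share. A further 9 were called higher in satellite cells and not called in teratoma-derived cells (Hk1, Pfkm, Tpi1, Pgam1, Pdk1, Bnip3l, Car9, Egln1, P4ha1), and 1, Vegfa, the other way round. Adm and Mxi1 were called lower only in the teratoma-derived and Hk2, Pfkp and Kdm3a only in the satellite comparison. The remaining 6 (Aldoc, Ankrd37, P4ha2, Slc16a3, Ddit4, Hif1a) were called in neither. A call in one and not in the other is no test of a difference, which the next comparison gives.

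**Figure D3:**
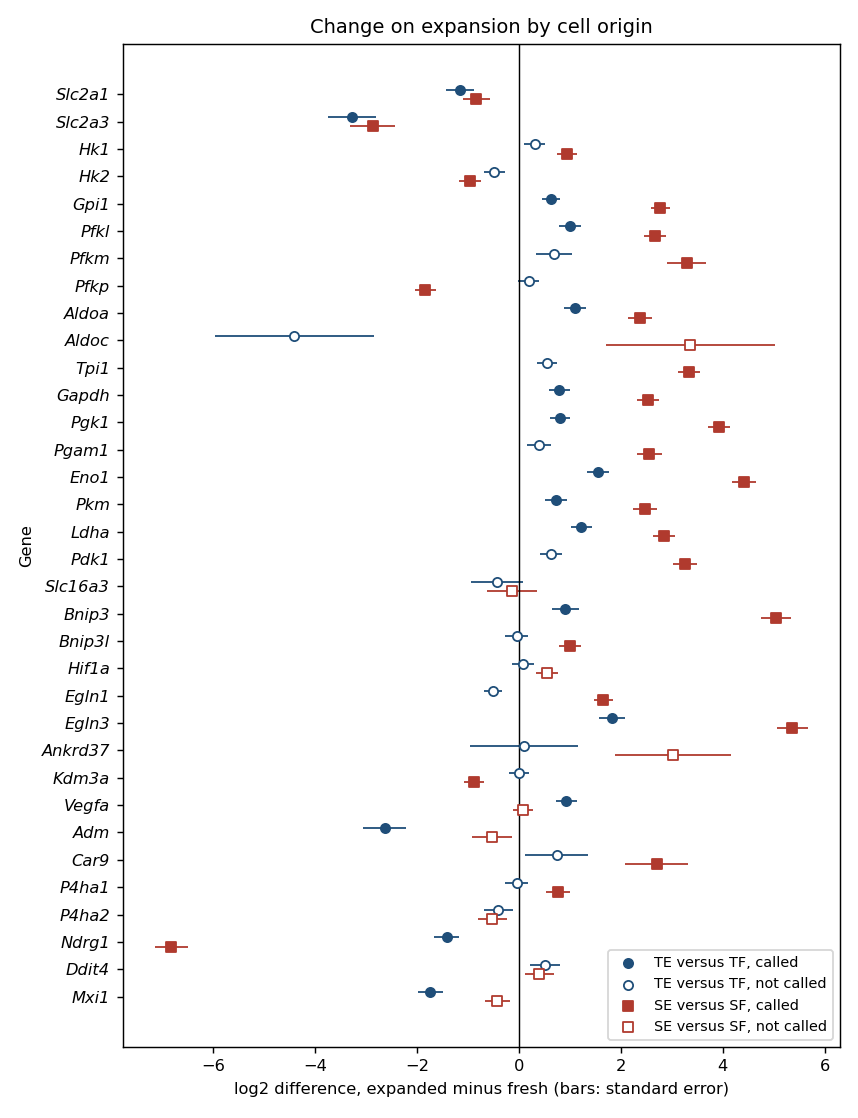
Log2 difference between expanded and fresh cells for each of the 34 genes, in teratoma-derived (circles, TE minus TF) and satellite cells (squares, SE minus SF), with bars of 1 standard error and filled points for called genes. For most enzymes the square lies to the right of the circle, with Bnip3 at 5.04 against 0.91 and Pgk1 at 3.93 against 0.81, while Ndrg1 lies at -6.82 against -1.41.

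The difference between the 2 expansions, TE versus TF minus SE versus SF, was tested in the same fit. Of the 15 enzymes 12 had a lower expansion difference in teratoma-derived than in satellite cells, as did Pdk1, Bnip3, Egln1, Egln3, Adm and Mxi1, while that of Ndrg1 and Pfkp was higher. In all, 18 of the 34 genes were called lower and 2 higher, where 9.62% and 4.70% of all tested genes were, and the median was -1.65 against -0.18 over all genes. The 2 called higher are near the general share. Bnip3 stood at -4.13 ± 0.38 (adjusted p = 0.000243), Egln3 at -3.53 ± 0.38 (adjusted p = 0.00053) and Pgk1 at -3.12 ± 0.28 (adjusted p = 0.000224). Aldoc had the largest fitted value, -7.78 ± 2.26 (adjusted p = 0.048), which rests on 4 and 0 counts in SF and 0 and 22 in TE, depends on the prior count, and lost its call without TF replicate 2 (-7.18) and without SF replicate 2 (-6.80). It moved to -14.00 without TE replicate 2, to -12.08 without SF replicate 1 and to -6.78 without TE replicate 1, so that its size is set by single libraries. Pfkm moved from -2.60 to -1.94 without SE replicate 2 and kept its call. In the other direction Ndrg1 stood at 5.40 ± 0.37 (adjusted p = 6.32e-05) and Pfkp at 2.03 ± 0.29 (adjusted p = 0.00231). Eno1 stood at -2.86 ± 0.30 (adjusted p = 0.000514), and at -2.93 with Eno1b added. Both glucose carriers (-0.32 for Slc2a1 and -0.40 for Slc2a3), Hif1a (-0.47) and Vegfa (0.85) were not called. Adm (-2.10) lost its call without each of the 8 libraries in turn (between -2.25 and -1.95). Aldoa (-1.28) and Mxi1 (-1.31) lost theirs without any 1 of TF replicates 1 and 2, TE replicates 1 and 2 or SF replicate 1 (between -1.37 and -1.16 for Aldoa), and Mxi1 also without SE replicate 2 (-1.21). Of the 12 differentiated muscle markers 9 and of the 6 proliferation markers 4 were called lower in the same contrast, and their part was not tested.

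Before culture, TF versus SF, teratoma-derived progenitors had more of many enzymes than satellite cells. Gpi1, Pfkl, Pfkm, Tpi1, Gapdh, Pgk1, Pgam1, Eno1 and Aldoc were higher in TF with Bnip3, Egln1 and Egln3, and Pfkp, Slc16a3, Ndrg1 and Vegfa were lower. The counts were 12 higher and 4 lower, where 15.1% and 9.13% of all tested genes were, with a median of 0.48 against 0.08 over all genes. The 4 called lower are near the general share. With median-ratio scaling the split over all genes moved from 2655 higher and 1606 lower to 2110 and 1942, and that of the 34 genes to 11 and 5. Egln3 was higher by 2.05 ± 0.28 (adjusted p = 0.00108) and Tpi1 by 2.00 ± 0.20 (adjusted p = 0.000261). Aldoc gave 6.35 ± 1.78 (adjusted p = 0.0289), a fitted value that depends on the prior count and lost its call without TF replicate 2 (5.77) and without SF replicate 2 (5.38). It moved to 10.66 without SF replicate 1, when the remaining SF library holds 0 counts. Ndrg1 was lower, at -2.56 ± 0.26 (adjusted p = 0.00025), as were Slc16a3 at -2.27 ± 0.52 (adjusted p = 0.0123) and Pfkp at -2.17 ± 0.21 (adjusted p = 0.000248). Slc16a3 moved to -3.50 without TF replicate 1 and to -1.62 without TF replicate 2, and kept its call. Eno1 moved from 0.96 to 1.83 with Eno1b added. Ldha at 0.53 ± 0.20 (adjusted p = 0.0822), Pdk1 at 0.47 ± 0.22 (adjusted p = 0.151) and Slc2a1 at -0.71 ± 0.26 (adjusted p = 0.0802) were not called. For 31 of the 34 genes the libraries did not overlap, as for 64.5% of all tested genes. The 12 calls became 8 without TF replicate 1, where Pfkl, Pfkm, Pgam1 and Eno1 lost theirs (0.86, 1.18, 0.84 and 0.73). Pfkl, Pfkm and Pgam1 also lost the call without SF replicate 1 (0.70, 1.42 and 0.76) and Pfkl without TF replicate 2 (0.75), and Vegfa lost it without any 1 of TF replicates 1 and 2, TE replicates 1 and 2 or SF replicate 2 (between -0.53 and -0.77). Of the 12 differentiated muscle markers 8 were higher in TF and 1 lower (median 1.84), and the fibro-adipogenic markers were higher for 3 of 7 genes, the haematopoietic for 3 of 7 and the proliferation markers for 5 of 6. Endothelial markers were lower in TF for 1 of 7 genes and erythroid markers for 2 of 5 tested. Pericyte and smooth muscle markers were 1 higher and 2 lower of 6, and satellite cell and myoblast markers 2 higher and 2 lower of 8. Their part was not tested.

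In culture at the same passage, TE versus SE, the teratoma-derived cells had less of many enzymes than the satellite cells. The enzymes Hk1, Gpi1, Pfkl, Aldoa, Tpi1, Pgk1, Pgam1, Eno1, Pkm and Ldha were lower in TE than in SE, with Pdk1, Slc16a3, Slc2a1, Bnip3, Egln1, Egln3, Adm and Car9, and Ndrg1 alone was higher. Of the 34 genes 18 were called lower and 1 higher, where 4.07% and 3.15% of all tested genes were, with a median of -1.03 against 0.00 over all genes. The 1 called higher is near the general share. Car9 stood at -3.36 ± 0.63 (adjusted p = 0.0118), Bnip3 at -2.71 ± 0.26 (adjusted p = 0.000508) and Adm at -2.60 ± 0.42 (adjusted p = 0.0059). Ndrg1 stood at 2.85 ± 0.27 (adjusted p = 0.000439). Eno1 stood at -1.90 ± 0.22 (adjusted p = 0.000972), and at -1.10 (adjusted p = 0.00714) with Eno1b added, so that the size of this difference rests on how reads of the pair were divided. Gapdh at -0.07 ± 0.20 (adjusted p = 0.951), Hk2 at 0.04 ± 0.21 (adjusted p = 1), Vegfa at 0.13 ± 0.20 (adjusted p = 0.821) and Hif1a at -0.04 ± 0.22 (adjusted p = 1) were not called. The other calls lay between -0.76 for Hk1 and -2.56 for Slc16a3. For 29 of the 34 genes the libraries did not overlap, as for 49.8% of all tested genes. The count of genes called lower was 5 without TE replicate 1 and 7 without TE replicate 2, although the differences of the genes that lost the call moved by at most 0.20, and it was between 15 and 18 without any 1 of the other 6 libraries. Over all genes 388 and 381 were called lower without TE replicates 1 and 2, in place of 715. Pgk1, Eno1, Pdk1 and Bnip3 were called lower without either of the 2 TE libraries, with Eno1 counted apart from Eno1b. No library was left out with the counts of that pair added. Besides the TE libraries, Hk1 and Pfkl lost theirs without TF replicate 1, TF replicate 2 or SE replicate 1, Tpi1 without TF replicate 1, TF replicate 2 or SE replicate 2, and Slc2a1 without SF replicate 1 or SE replicate 1. With only the 2 groups in the fit Hk1 (-0.77), Pfkl (-0.87) and Slc2a1 (-1.03) were not called. Car9 lost its call without SE replicate 2 (-2.06, adjusted p = 0.17) and without TE replicate 1 (-3.29). Of the 12 differentiated muscle markers 3 were lower in TE and 1 higher, and their part was not tested.

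**Figure D4:**
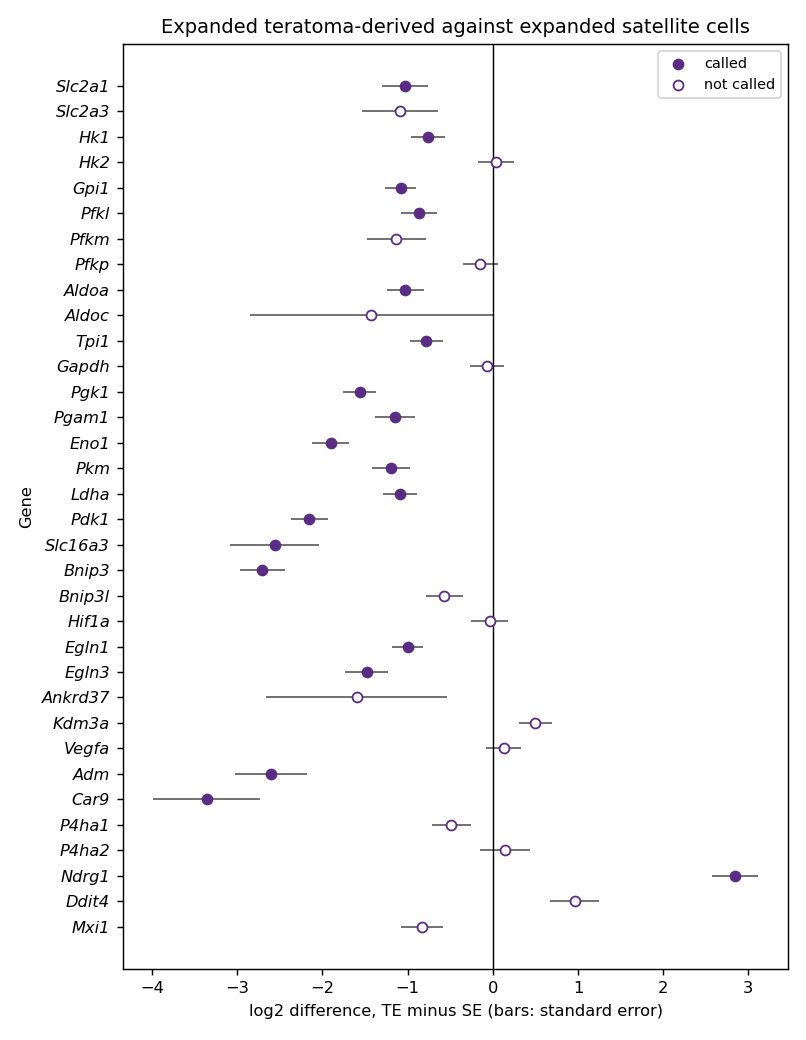
Log2 difference between TE and SE for each of the 34 genes with bars of 1 standard error, filled where called. Of the 34 points 28 lie left of 0, from -3.36 for Car9, and Ndrg1 at 2.85 is the only filled point to the right.

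Isoforms of 1 enzyme were compared per kilobase of the longest annotated transcript. In SF the platelet phosphofructokinase Pfkp led with 614 ± 102 normalized counts per kilobase, against 116 ± 7.84 for Pfkl and 85.2 ± 1.01 for Pfkm. In SE, Pfkm had 730 ± 380 and Pfkl 646 ± 146 against 151 ± 2.35 for Pfkp, and which of the first pair led depended on the length used. Pfkp was also the least of the 3 in TF (122 ± 11.3) and TE (134 ± 15.3). Among hexokinases Hk2 exceeded Hk1 in SF (920 ± 157 against 396 ± 38.2) and TF (607 ± 5.87 against 327 ± 1.77), and Hk1 exceeded Hk2 in SE (671 ± 132 against 416 ± 86.1), where the replicates of the 2 genes did not overlap. In TE the pair lay within their spread (390 ± 34.5 for Hk1 and 419 ± 45.9 for Hk2) and changed order with the length used. With the copy Eno1b left out, Eno1 was the leading enolase in each group, and the muscle form Eno3 went from 129 ± 13.4 in TF to 1360 ± 46.9 in TE and from 133 ± 1.56 in SF to 2461 ± 186 in SE. The muscle mutase Pgam2 rose likewise, from 97.1 ± 8.61 in SF to 1977 ± 1091 in SE. Ldha exceeded the heart form Ldhb in all groups, with 6940 ± 647 against 263 ± 130 in SE and 1098 ± 121 against 207 ± 15.1 in SF. Of the pyruvate dehydrogenase kinases, Pdk4, the form of fasting and fat burning, led in SF (471 ± 27.4) and TF (217 ± 37.4), and Pdk1 led in SE (320 ± 43.0) but not in TE (70.8 ± 6.42, against 137 ± 1.39 for Pdk2). The errors of these levels are SDs over 2 libraries, and the isoforms were not tested against each other.

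**Figure D5:**
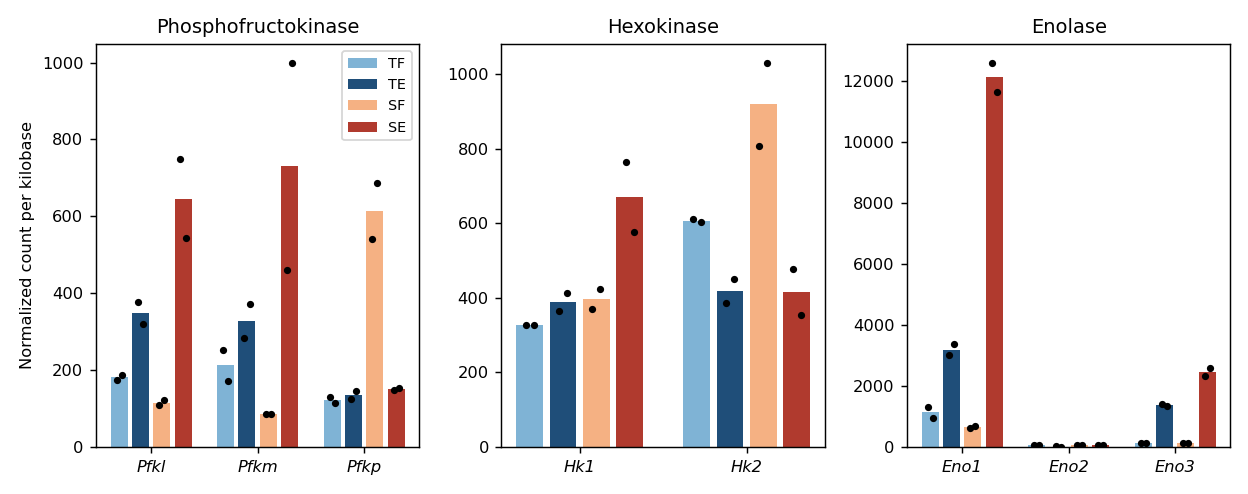
Normalized counts per kilobase of the longest annotated transcript for the isoforms of phosphofructokinase, hexokinase and enolase, with bars for group means (n = 2) and points for libraries. Pfkp is the tallest phosphofructokinase bar in SF and the shortest in the other groups, and Eno3 appears in both expanded groups, at means of 1360 in TE and 2461 in SE.

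Of 29 other isoforms and regulators of glycolysis, 25 were tested, and 8 were higher and 5 lower in SE versus SF, 2 higher and 5 lower in TE versus TF, 5 higher and 3 lower in TF versus SF and 4 lower with 21 not called in TE versus SE. The shares of all tested genes called higher and lower were 20.9% and 19.8%, 9.86% and 16.2%, 15.1% and 9.13%, and 3.15% and 4.07% in these 4 comparisons. The 5 of 25 lower in SE versus SF are thus near the general share. So are the 2 higher and 5 lower in TE versus TF and the 5 higher and 3 lower in TF versus SF. Eno3 rose in both expansions, by 4.40 ± 0.20 (adjusted p = 1.37e-06) in satellite and 3.45 ± 0.19 (adjusted p = 4.67e-06) in teratoma-derived cells, and Pgam2 by 4.54 ± 0.51 (adjusted p = 0.000119) and 1.87 ± 0.45 (adjusted p = 0.0136). Pdk4 fell in both, at -1.15 ± 0.30 (adjusted p = 0.0133) and -2.71 ± 0.32 (adjusted p = 0.000291), and was lower in TE than in SE at -2.52 ± 0.32 (adjusted p = 0.00178). Slc16a7, a monocarboxylate carrier, fell at -5.29 ± 0.88 (adjusted p = 0.00198) in teratoma-derived cells and at -3.66 ± 0.77 (adjusted p = 0.00447) in satellite cells. Bpgm, which makes a side product of glycolysis that loosens oxygen from hemoglobin, was higher in TF than in SF by 3.94 ± 0.35 (adjusted p = 0.000161).

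Of 12 genes for the other HIF subunits and the oxygen-sensing machinery, 5 were higher and 4 lower in SE versus SF, 2 higher and 3 lower in TE versus TF, 2 higher and 4 lower in TF versus SF and 2 lower with 10 not called in TE versus SE. Of all tested genes 20.9% and 19.8% were higher and lower in SE versus SF, 9.86% and 16.2% in TE versus TF, 15.1% and 9.13% in TF versus SF and 4.07% lower in TE versus SE. The 2 of 12 higher in TF versus SF are near the general share, and the other counts of 2 and 3 are too small to be set apart from these shares. Epas1, another alpha subunit of HIF that is also abundant in endothelium, measured 1716 and 977 in TF, 25.5 and 48.6 in TE, 3915 and 3906 in SF and 28.6 and 38.6 in SE. It fell at -5.13 ± 0.39 (adjusted p = 1.99e-05) in teratoma-derived and at -6.67 ± 0.41 (adjusted p = 5.04e-06) in satellite cells, where all 7 endothelial markers fell as well. Hif3a, a HIF subunit that can oppose the others, fell at -2.50 ± 0.72 (adjusted p = 0.0296) and -4.14 ± 0.78 (adjusted p = 0.00234). Arnt, the shared partner of the alpha subunits, fell in satellite cells at -1.88 ± 0.17 (adjusted p = 3.58e-05) and had a difference between the expansions of 1.45 ± 0.24 (adjusted p = 0.00394). Hif1an, which blocks HIF by hydroxylating another residue, rose by 1.63 ± 0.22 (adjusted p = 0.000656) in teratoma-derived cells.

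Another list of 30 known HIF targets moved in both directions. In SE versus SF 11 were higher and 13 lower, with a median of -0.40, in TE versus TF 6 higher and 10 lower (median -0.34), in TF versus SF 9 higher and 4 lower (0.39), and in TE versus SE 2 higher and 7 lower (-0.08). The shares of all tested genes, higher and lower, were 20.9% and 19.8%, 9.86% and 16.2%, 15.1% and 9.13%, and 3.15% and 4.07% in the same order. The 4 of 30 lower in TF versus SF are near that share. Gys1, muscle glycogen synthase, rose by 3.98 ± 0.26 (adjusted p = 6.55e-06) in satellite and 3.05 ± 0.25 (adjusted p = 3.33e-05) in teratoma-derived cells. Fam162a, a mitochondrial HIF target, measured 458 and 454 in TF, 613 and 571 in TE, 229 and 247 in SF and 1631 and 1818 in SE. It rose by 3.04 ± 0.21 (adjusted p = 7.64e-06) in satellite cells and had a difference between the expansions of -2.61 ± 0.28 (adjusted p = 0.00053). Mif, a cytokine, rose by 3.10 ± 0.28 (adjusted p = 3.48e-05) in satellite cells. The targets that fell included genes of matrix and vessels, with Flt1, a VEGF receptor, at -6.69 ± 0.66 (adjusted p = 9.61e-05) in TE versus TF and -5.01 ± 0.56 (adjusted p = 0.000112) in SE versus SF, and Lox, which crosslinks collagen, at -5.34 ± 0.44 (adjusted p = 3.65e-05) and -1.65 ± 0.38 (adjusted p = 0.00695). All 7 endothelial markers fell in both expansions, and of the 7 fibro-adipogenic markers 7 fell in TE versus TF and 6 in SE versus SF. The part of these cells in the fall of Flt1 and Lox was not tested. Other targets had lower expanded than fresh means as well. In the order TF, TE, SF and SE, Bhlhe40 had means of 6827, 745, 6079 and 397 normalized counts. Rora had means of 1222, 206, 4005 and 332, and Hmox1 of 1298, 990, 7439 and 656. Angptl4 had means of 305.5, 20.05, 677.8 and 42.63.

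Of the 7 genes of the pentose phosphate pathway, which branches from glycolysis at glucose 6-phosphate and yields NADPH and ribose, 5 were higher and 2 not called in SE versus SF, 1 higher and 1 lower in TE versus TF, 3 higher and 4 not called in TF versus SF and 1 lower and 6 not called in TE versus SE. In the difference between the expansions 5 were lower and 2 not called, where 9.62% of all tested genes were lower. Of all tested genes 20.9% were higher in SE versus SF, 9.86% higher and 16.2% lower in TE versus TF, 15.1% higher in TF versus SF and 4.07% lower in TE versus SE, and the single genes called in TE versus TF are near the general share. Pgd rose by 2.47 ± 0.29 (adjusted p = 0.000154) in satellite cells. Tkt fell at -1.83 ± 0.29 (adjusted p = 0.00138) and G6pdx, the entry enzyme, rose by 0.78 ± 0.23 (adjusted p = 0.0337) in teratoma-derived cells.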

How the data were processed

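Total RNA of the 8 libraries was made into stranded libraries with the SMARTer Stranded Total RNA-Seq Pico kit. The authors deposited estimated counts per gene symbol, not normalized, and the submitters' processing notes name CASAVA, kallisto 0.44.0 and GRCm38 (mm10), with no role given. The transcript annotation behind the counts is not given in the sources used here.

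Each estimated count was rounded before testing, and genes were kept by edgeR's filterByExpr, which left 17582 of 24980, scaled by TMM and fitted with 1 term per group over all 8 libraries, with no replicate term (R 4.3.3, edgeR 4.0.16). The quasi-likelihood test gave 4 pairwise comparisons and the difference between the expansions, with Benjamini-Hochberg adjustment over all genes tested. The scripts were tested on simulated data. Levels were divided by median-ratio size factors. Alternatives were median-ratio scaling, no filter, DESeq2 1.42.0, only the groups compared, a replicate block, each library left out, and Eno1 and Eno1b added.

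The 34 genes, the other lists and the markers were chosen with earlier results of these data known. All 34 matched by symbol. Per-library values were given for members called in at least 1 comparison, full statistics for up to 3 called members in each direction with the largest difference, and 6 other genes (Hif1a, Slc2a1, Hk2, Ldha, Pdk1, Vegfa) called or not. Genes of the other lists that are printed were taken from their up to 3 largest called changes or are isoforms of a member, besides Bhlhe40, Rora, Hmox1 and Angptl4, given by mean level. Gene positions and lengths come from GENCODE M21 on GRCm38 and promoters from RefSeq on GRCm38.p6, with an entry for 31 of the 34. Slc2a3, Bnip3l and Ndrg1 had none. Depth was between 11930961 and 21146632 counts a library, of which Rn45s took 7.99% to 21.3%.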

Additional observations from a re-analysis of the deposited data

Results flagged for a closer look

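For 20 of the 34 genes the log2 change on expansion differed between teratoma-derived and satellite cells by the test of the difference itself (teratoma minus satellite, edgeR's quasi-likelihood test, adjusted over all genes), 18 being lower and 2 higher, where 9.62% and 4.70% of all tested genes were. The 2 called higher are near that share. Among the enzymes of glycolysis the difference was -2.15 for Gpi1, -1.67 for Pfkl, -2.60 for Pfkm (-1.94 without SE replicate 2), -1.28 for Aldoa, -2.78 for Tpi1, -1.74 for Gapdh, -3.12 for Pgk1, -2.17 for Pgam1, -2.86 for Eno1, -1.75 for Pkm and -1.62 for Ldha. It was -7.78 for Aldoc, whose counts are near 0 in SF and TE, and 2.03 for Pfkp. Among the other genes it was -2.63 for Pdk1, -4.13 for Bnip3, -2.16 for Egln1, -3.53 for Egln3, -2.10 for Adm, -1.31 for Mxi1 and 5.40 for Ndrg1.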

How the results depend on the processing

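No called difference changed direction under any alternative. Of the 96 calls over the 5 comparisons, 96 were kept with DESeq2, with no filter and with Eno1 and Eno1b added (an alternative chosen after seeing the data), 93 with median-ratio scaling, 70 of 76 with only the 2 groups compared, which cannot give the difference between the expansions, and 73 to 92 without 1 library. Members called lower in TE versus TF numbered 8 with only the 2 groups (5 in the report), those lower in TF versus SF 7 with DESeq2 (4), those higher in TE versus SE 2 with no filter (1), and those higher in the difference between the expansions 4 with median-ratio scaling and 4 with DESeq2 (2); the cause was not tested. Over all genes, TE versus TF gave 2667 higher with only the 2 groups (1733), TF versus SF 2644 lower with DESeq2 (1606), TE versus SE 902 higher and 1357 lower with no filter and 865 and 1257 with DESeq2 (553 and 715), and the difference between the expansions 1284 higher with no filter and 1500 with DESeq2 (826). Without 1 library the members called higher and lower ranged over 17 to 20 and 5 to 6 in SE versus SF, 4 to 13 and 4 to 6 in TE versus TF, 8 to 13 and 3 to 6 in TF versus SF, 1 to 2 and 5 to 18 in TE versus SE, and 2 to 4 and 14 to 18 in the difference between the expansions. Over all genes these ranges were 811 to 2116 and 1919 to 3340 in TE versus TF, 1692 to 3119 and 932 to 1985 in TF versus SF, 272 to 741 and 381 to 957 in TE versus SE, 457 to 1074 and 1008 to 1922 in the difference between the expansions and 3013 to 3663 and 2530 to 3385 in SE versus SF.

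The labels do not say whether replicate numbers pair the libraries. Correlations between groups of the replicate 1 minus replicate 2 difference lay between -0.023 and 0.066, which cannot show whether libraries share an origin or a preparation. With a replicate block the members called higher and lower were 10 and 5 in TE versus TF, 19 and 6 in SE versus SF, 12 and 5 in TF versus SF, 1 and 16 in TE versus SE and 2 and 16 in the difference between the expansions. It ended the calls of Pkm in TE versus TF (adjusted p = 0.056), of Hk1 (0.069) and Tpi1 (0.057) in TE versus SE, and of Aldoc (0.052) and Adm (0.055) in the difference between the expansions.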
